A study of Mus musculus with 16 samples.

Results

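Genes for the pore-forming and ligand-binding subunits of the glutamate and GABA receptors were followed in the hippocampus of mice that carried the 5xFAD amyloid transgenes, the Dp16 duplication, both, or neither. The protein-coding rows whose symbols start with Gria, Grin1, Grin2, Grin3, Grik, Grm and a digit, Gabra, Gabrb, Gabrg, Gabrd or Gabbr were taken, and Grina, Grik1 and Grik4 were left out. This gave 37 genes of 55385 in the count table, with 34 of them among the 16684 genes that passed the low-count filter. The 3 that did not pass were Gabra6, Grin3b and Grm6. They are described by their counts.

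Poly(A) RNA was sequenced in 16 hippocampus libraries from mice aged 5 months, with 4 libraries in each genotype group. The 5xFAD-Dp16 group carried both alterations and consisted of 4 males. The 5xFAD group carried the amyloid transgenes and had 2 females and 2 males. The Dp16 group carried the duplication and had 2 females and 2 males. The wild-type group was C57BL/6J, also with 2 females and 2 males. 5xFAD mice express mutant human amyloid transgenes, APP among them, from the neuronal Thy1 promoter and deposit amyloid early, so every amyloid comparison is of a transgene overexpressed in neurons. Dp16 mice carry an extra copy of the stretch of mouse chromosome 16 that matches most of human chromosome 21, a model of Down syndrome. The libraries held 15838097 to 25037769 counts each. All 8 CA1, 8 CA3 and 10 dentate granule cell markers had counts. In 4 libraries, 5xFAD-Dp16 library 3, 5xFAD libraries 2 and 4 and wild-type library 4, CA1 marker scores were the lowest of the 16. Their thalamus marker scores were the highest. The genotype comparisons are also given without these 4, a set chosen after seeing the data. The set was taken as the 4 libraries with the highest score of midbrain and hypothalamus markers. Without them the groups hold 3 (5xFAD-Dp16), 2 (5xFAD), 4 (Dp16) and 3 (wild-type) libraries. Ifnar1, which lies in the duplicated stretch, had the smallest p of all genes in Dp16 against wild-type, and Cst7, a gene of activated microglia, in 5xFAD against wild-type.

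Glutamate opens AMPA, NMDA and kainate receptors, which are cation channels of 4 subunits that carry fast excitatory transmission, and it also activates metabotropic receptors coupled to G proteins. GABA opens the GABA-A receptors, chloride channels assembled from alpha, beta and gamma or delta subunits, and activates the GABA-B receptor, a G protein-coupled dimer of the products of Gabbr1 and Gabbr2. In the hippocampus the choice of subunit differs between CA1, CA3, the dentate gyrus and interneurons, so subunit mRNA in whole tissue depends on both expression per cell and the cells present. In these bulk libraries fewer cells of a type and less RNA per cell cannot be told apart.

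Promoter sequence was available from RefSeq (GRCm38.p6) as windows from 250 bases before to 50 bases after an annotated start, 300 bases in all, for 25 of the 37 genes and 32 starts. The windows of Grm2 and Gabbr1, the gene with the smallest p in the averaged amyloid comparison below and the highest-expressed GABA receptor gene, are shown beside those of Gabra6 and Grm6, which had almost no counts. Each is printed 5′ to 3′ on the strand of its gene, with CpG dinucleotides in capitals. The Grm2 window is chr9:106656060-106656359 on the minus strand, that of Gabbr1 is chr17:37045716-37046015 on the plus strand, that of Gabra6 is chr11:42321023-42321322 on the minus strand and that of Grm6 is chr11:50850435-50850734 on the plus strand.
Grm2: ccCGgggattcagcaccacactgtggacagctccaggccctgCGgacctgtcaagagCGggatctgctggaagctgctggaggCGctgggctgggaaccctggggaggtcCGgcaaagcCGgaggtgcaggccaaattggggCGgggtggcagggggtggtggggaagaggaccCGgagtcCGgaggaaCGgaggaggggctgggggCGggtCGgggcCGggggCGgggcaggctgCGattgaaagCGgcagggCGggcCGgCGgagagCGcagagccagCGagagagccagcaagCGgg
Gabbr1: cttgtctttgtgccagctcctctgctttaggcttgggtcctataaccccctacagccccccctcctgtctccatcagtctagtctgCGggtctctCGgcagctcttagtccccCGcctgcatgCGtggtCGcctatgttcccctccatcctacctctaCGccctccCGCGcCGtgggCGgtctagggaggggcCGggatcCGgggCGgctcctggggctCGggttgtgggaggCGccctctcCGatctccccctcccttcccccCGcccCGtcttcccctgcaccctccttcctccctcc
Gabra6: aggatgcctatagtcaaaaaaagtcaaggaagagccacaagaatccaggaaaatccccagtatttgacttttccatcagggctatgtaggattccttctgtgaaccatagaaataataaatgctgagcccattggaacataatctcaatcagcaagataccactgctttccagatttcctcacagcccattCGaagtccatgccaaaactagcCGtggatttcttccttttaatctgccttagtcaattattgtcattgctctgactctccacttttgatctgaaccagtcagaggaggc
Grm6: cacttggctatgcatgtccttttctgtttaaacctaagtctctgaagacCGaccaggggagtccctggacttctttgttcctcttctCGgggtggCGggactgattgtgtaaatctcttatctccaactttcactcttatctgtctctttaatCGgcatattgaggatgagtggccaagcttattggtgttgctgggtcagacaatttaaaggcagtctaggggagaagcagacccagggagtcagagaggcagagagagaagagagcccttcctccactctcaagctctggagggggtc
The windows of Grm2 and Gabbr1 held 22 and 18 CpG dinucleotides, and those of Gabra6 and Grm6 held 2 and 4.

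The third gene that failed the filter, Grin3b, had 3 CpG dinucleotides in its window, and Gabrg1, which passed, also had 3. Both windows of Gabra3 had 0 although the gene averaged 20.9 RPKM, so a window with few CpG dinucleotides was found at expressed genes too. The median was 12 per window over the receptor genes, against 7 over all 32851 windows in the table. The GC box GGGCGG, searched on both strands, was in 15 of the 32 receptor windows (46.9%) and in 35.66% of all windows. TATAAA, searched on both strands, was in 4 receptor windows (12.5%) and in 13.62% of all windows. TGACGTCA, which reads the same on both strands, was in 0 receptor windows and in 1.79% of all windows. These counts describe letters in a window and not binding.

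The order of expression was compared between genes as RPKM, reads per kilobase of gene scaled to library size, which the authors deposited beside the counts. AMPA receptor genes held the highest member. Gria1, the subunit that dominates CA1 synapses and is inserted during potentiation, averaged 192 ± 35 RPKM (SD, n = 16) and exceeded 98.6% of tested genes. Its level was 208, 239, 146 and 190 RPKM in 5xFAD-Dp16, 194, 138, 199 and 151 RPKM in 5xFAD, 225, 212, 239 and 182 RPKM in Dp16, and 202, 199, 223 and 126 RPKM in wild-type. The 4 groups overlapped, and the lowest library was a wild-type library. Gria2, whose edited subunit makes AMPA receptors impermeable to calcium, averaged 42.4 ± 4.99 RPKM, Gria3 24.9 ± 3.41 RPKM and Gria4 11.1 ± 3.34 RPKM. Gria1 made up 62.8 to 75.1% of the summed AMPA receptor RPKM across libraries and Gria2 14.1 to 17.5%. The log2 ratio of Gria1 to Gria2 averaged 2.26 ± 0.17 in 5xFAD-Dp16, 2.06 ± 0.08 in 5xFAD, 2.19 ± 0.16 in Dp16 and 2.15 ± 0.19 in wild-type, each over 4 libraries with its SD, and the ranges overlapped.

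Among NMDA receptor genes, Grin1, the subunit that every NMDA receptor needs, was highest at 128 ± 19.9 RPKM (SD, n = 16). It had 139, 151, 106 and 129 RPKM in 5xFAD-Dp16, 124, 99.6, 132 and 98.6 RPKM in 5xFAD, 136, 146, 145 and 131 RPKM in Dp16, and 156, 130, 140 and 89.8 RPKM in wild-type. The wild-type range enclosed those of the other groups. Grin2b and Grin2a, the glutamate-binding subunits whose balance shifts towards Grin2a during postnatal development, averaged 16.4 ± 5.7 and 15.5 ± 5.4 RPKM. They were among the members with the widest spread, with a highest library 3.81 times the lowest for Grin2b and 4.95 times for Grin2a. Their ratio moved less, since the log2 ratio of Grin2a to Grin2b lay between -0.50 and 0.09 in the 16 libraries. Grin2c averaged 9.02 RPKM, Grin3a, whose subunit lowers calcium permeability, 6.33 RPKM, and Grin2d, a subunit of early development and interneurons, 3.53 RPKM. Grin3b had 82 counts in all libraries together and at most 17 in any of them. With 32.13% of its exon length shared with Tmem259 on the opposite strand, even these counts are uncertain, because no source used here states the strand setting of the counting. The kainate receptor genes were led by Grik5, a high-affinity subunit that needs a partner to form a channel, at 60.1 ± 11.3 RPKM. Its level was 65.2, 70.1, 43.8 and 59.2 RPKM in 5xFAD-Dp16, 61, 50.2, 57.3 and 37.4 RPKM in 5xFAD, 66.7, 66.2, 70.6 and 59.8 RPKM in Dp16, and 76.2, 63, 72.7 and 43 RPKM in wild-type. The channel-forming kainate subunits were lower and the groups again overlapped for Grik5. Grik3 averaged 6.28 RPKM and Grik2 4.82 RPKM, with Grik2 spreading by 1.39 times between its lowest and highest library.

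Among the metabotropic receptors, Grm5, a Gq-coupled postsynaptic receptor of hippocampal pyramidal cells, averaged 30 ± 4.12 RPKM. Grm5 had 31.3, 32.9, 23.5 and 32.5 RPKM in 5xFAD-Dp16, 30.8, 24.3, 31.7 and 21.1 RPKM in 5xFAD, 32.4, 31.9, 33.7 and 33.6 RPKM in Dp16, and 28.5, 31.2, 34.8 and 25.7 RPKM in wild-type. The 4 Dp16 libraries lay within 31.9 to 33.7 RPKM and every other group held libraries below them. Of the Gi-coupled receptors, Grm3, found in neurons and astrocytes, averaged 20.2 ± 1.71 RPKM, Grm2, a presynaptic receptor of dentate granule cells, 12.1 ± 2.82 RPKM, Grm7, a presynaptic receptor of low glutamate affinity, 11.5 ± 1.15 RPKM, Grm4 3.61 RPKM and Grm8 2.92 RPKM. Grm6, known as the receptor of retinal ON bipolar cells, had 1 count in the 16 libraries together. A count of 0 allows up to 3 counts in a library, or 0.12 to 0.189 CPM (counts scaled to library size) here. Such limits cover counting error only.

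Of the GABA-A receptor alpha genes, Gabra5, an extrasynaptic subunit enriched in the hippocampus, averaged 57.5 ± 9.7 RPKM. It had 58.2, 62.8, 54.8 and 56 RPKM in 5xFAD-Dp16, 50.9, 37, 60.1 and 57 RPKM in 5xFAD, 63.1, 62.8, 68.4 and 61.3 RPKM in Dp16, and 62.1, 63.8, 67.1 and 33.9 RPKM in wild-type. The lowest library was in wild-type, whose range overlapped those of the other groups. All 4 5xFAD libraries lay below all 4 Dp16 libraries in RPKM, at most 60.1 against at least 61.3. These 2 groups were not compared directly in the tests below. Gabra3, Gabra4 and Gabra2 averaged 20.9, 17.9 and 13.6 RPKM. Gabra6, known from cerebellar granule cells, had 142 counts in all, of which 105 lay in wild-type library 4. The beta subunits Gabrb2 and Gabrb1 averaged 26.2 ± 1.47 and 14 ± 2.7 RPKM. Gabrd, the extrasynaptic subunit of the dentate gyrus and thalamus, averaged 11.2 RPKM, Gabrg1 5.7 RPKM and Gabrg3, the lowest gene that passed the filter, 1.93 RPKM.

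The GABA-B receptor genes were Gabbr1, whose subunit binds GABA, at 133 ± 7.03 RPKM, and Gabbr2, whose subunit couples to the G protein, at 69 ± 11.8 RPKM. Gabbr1 had 133, 139, 124 and 132 RPKM in 5xFAD-Dp16, 125, 126, 127 and 119 RPKM in 5xFAD, 139, 140, 138 and 138 RPKM in Dp16, and 143, 128, 135 and 139 RPKM in wild-type. In RPKM all 4 5xFAD libraries lay below all 4 wild-type libraries while their library-scaled values overlapped. RPKM is not corrected for the composition of a library. Differences between genotypes were therefore tested on the counts.

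**Figure D1:**
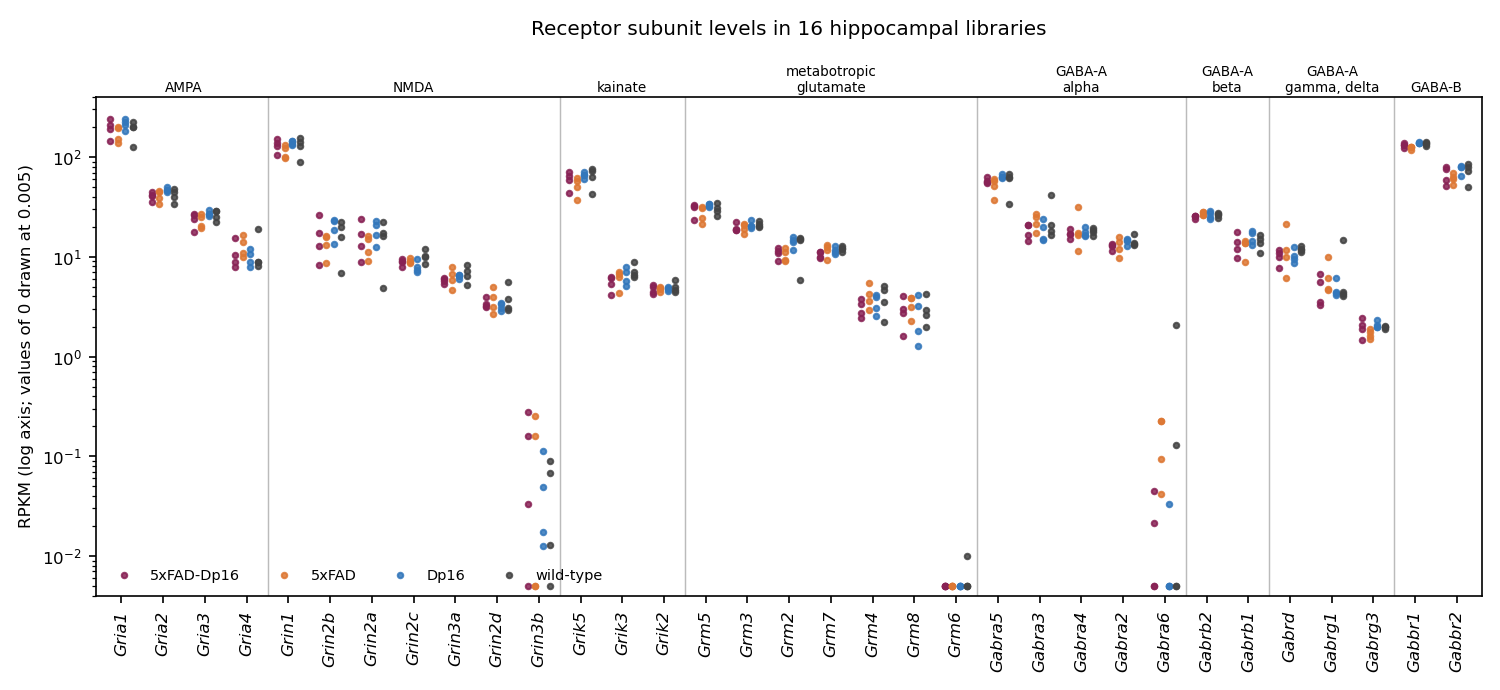
RPKM of 33 receptor genes (log axis), grouped by receptor type and ordered by mean within it, with a point for each of the 4 libraries of 5xFAD-Dp16, 5xFAD, Dp16 and wild-type. Gria1 is highest at a mean of 192 RPKM, and Grin3b, Grm6 and Gabra6 lie apart at the bottom, except for Gabra6 in wild-type library 4 at 2.07 RPKM.

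Many GABA-A genes lie in clusters (positions from GENCODE M21, GRCm38, coordinates counted from 1). Gabra6 (chr11:42306437-42321072, minus strand) and Gabrb2 (chr11:42419757-42629028, plus strand) lie 98.7 kb apart on chromosome 11, where Gabra6 had almost no counts and Gabrb2 averaged 26.2 RPKM. Gabrg1, Gabra2, Gabra4 and Gabrb1 form the cluster on chromosome 5, where Gabra4 (chr5:71569749-71658308, minus strand) and Gabrb1 (chr5:71658113-72149037, plus strand) are transcribed away from each other and share 46 exon bases. Gabrg3 and Gabra5 lie 20.5 kb apart on chromosome 7. Grin2a (chr16:9567898-9995560) was the only member on chromosome 16, and it lies outside the stretch duplicated in Dp16.

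Genotypes were compared with edgeR's quasi-likelihood test on counts, with sex as a covariate, and p-values were adjusted by Benjamini-Hochberg over all 16684 tested genes with a threshold of 0.05. No receptor gene passed in any of the 9 genotype comparisons or between the sexes, with edgeR or with DESeq2. One contrast sets all 8 carriers of the amyloid transgenes against all 8 non-carriers, averaged over the presence of the duplication. In it edgeR called 427 genes, 2.56% of those tested, and 0 of the 34 receptor genes, where 6 had an unadjusted p under 0.05 (DESeq2 called 0, with 7 at an unadjusted p under 0.05). Among the 6 were Grm2, Gria3, Grm7, Gabbr1 and Grm3, each with a lower estimate in carriers. Without the low-count filter edgeR called 4 members here, Grik5, Grm2, Grin2b and Grin2a, where 1284 of 30883 genes (4.16%) were called. In the same setting it called Gabra6 in Dp16 against wild-type (0.68% of all genes) and in the averaged duplication effect (0.58%), Grm2 in 5xFAD-Dp16 against Dp16 (2.01%) and Grin2a between the sexes (1.31%), and Gabra6, Grm2, Grin2b and Grin2a for any difference among the genotypes (4.24%). Of the 142 Gabra6 counts, 105 were in wild-type library 4.

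Grm2 had the smallest p and the lowest estimate. It was at 11.4, 12.2, 8.99 and 10.8 RPKM in 5xFAD-Dp16, 11.2, 9.38, 12.2 and 9.16 RPKM in 5xFAD, 11.6, 15.8, 14.2 and 14.8 RPKM in Dp16, and 15.3, 15.2, 14.9 and 5.91 RPKM in wild-type. Of the 8 non-carriers, 6 lay above all carriers, Dp16 library 1 lay among the carriers, and wild-type library 4 lay below every other library. The log2 fold change of Grm2, carriers over non-carriers, was -0.44 ± 0.17 (SE) with a 95% interval of -0.80 to -0.07 and an adjusted p of 0.24 in edgeR. Without wild-type library 4 it was -0.52 with an adjusted p of 0.0077, which is below the threshold, where 3.07% of all tested genes were called. Wild-type library 4 also had the lowest mean score for dentate granule cell markers, -1.27 on the log2 scale against -0.59 to 0.50 in the other 15 libraries. The part of granule cell content in the Grm2 values was not tested. Of the exon length of Grm2, 9.6% is shared with the antisense gene Gm28111.

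Gria3, with 26.6, 26.5, 17.6 and 23.7 RPKM in 5xFAD-Dp16, 25.2, 19.5, 26.7 and 20.5 RPKM in 5xFAD, 25.4, 27, 29.3 and 26.7 RPKM in Dp16, and 28.7, 25.1, 28.5 and 22.1 RPKM in wild-type, had the second smallest p. Its log2 fold change was -0.28 ± 0.12 (SE; adjusted p = 0.274 in edgeR), and the carrier and non-carrier libraries overlapped. Grm7, Gabbr1 and Grm3 had log2 fold changes of -0.17, -0.16 and -0.15. Over the 34 genes, 29 estimates were below 0 (85.3%), against 45.2% of all tested genes, and the median log2 fold change was -0.17 against 0.02 over all tested genes. Among the 5 estimates above 0 were Grm8, Gria4, Grin2d and Gabrg1. For 26 genes the 95% interval lay within a change of 1.5-fold in either direction. Beside this, the score of 12 microglial markers was 0.31 to 1.04 in carriers and -0.63 to -0.35 in non-carriers, while that of 10 pan-neuronal markers was -0.09 to 0.12 in carriers and -0.09 to 0.16 in non-carriers. In the averaged amyloid contrast 9 of 10 excitatory neuron markers had estimates below 0 (median -0.289), as did 8 of 8 CA1 markers (-0.2779). Of 10 pan-neuronal markers 5 did (-0.0047), and of 10 oligodendrocyte markers 0 did (0.3698). Without the 4 libraries lowest in CA1 markers the medians were -0.1237, -0.1931, -0.0776 and 0.1941 in this order. There 9 of 10, 7 of 8, 9 of 10 and 0 of 10 were below 0. The part of any of these markers in the receptor estimates was not tested.

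**Figure D2:**
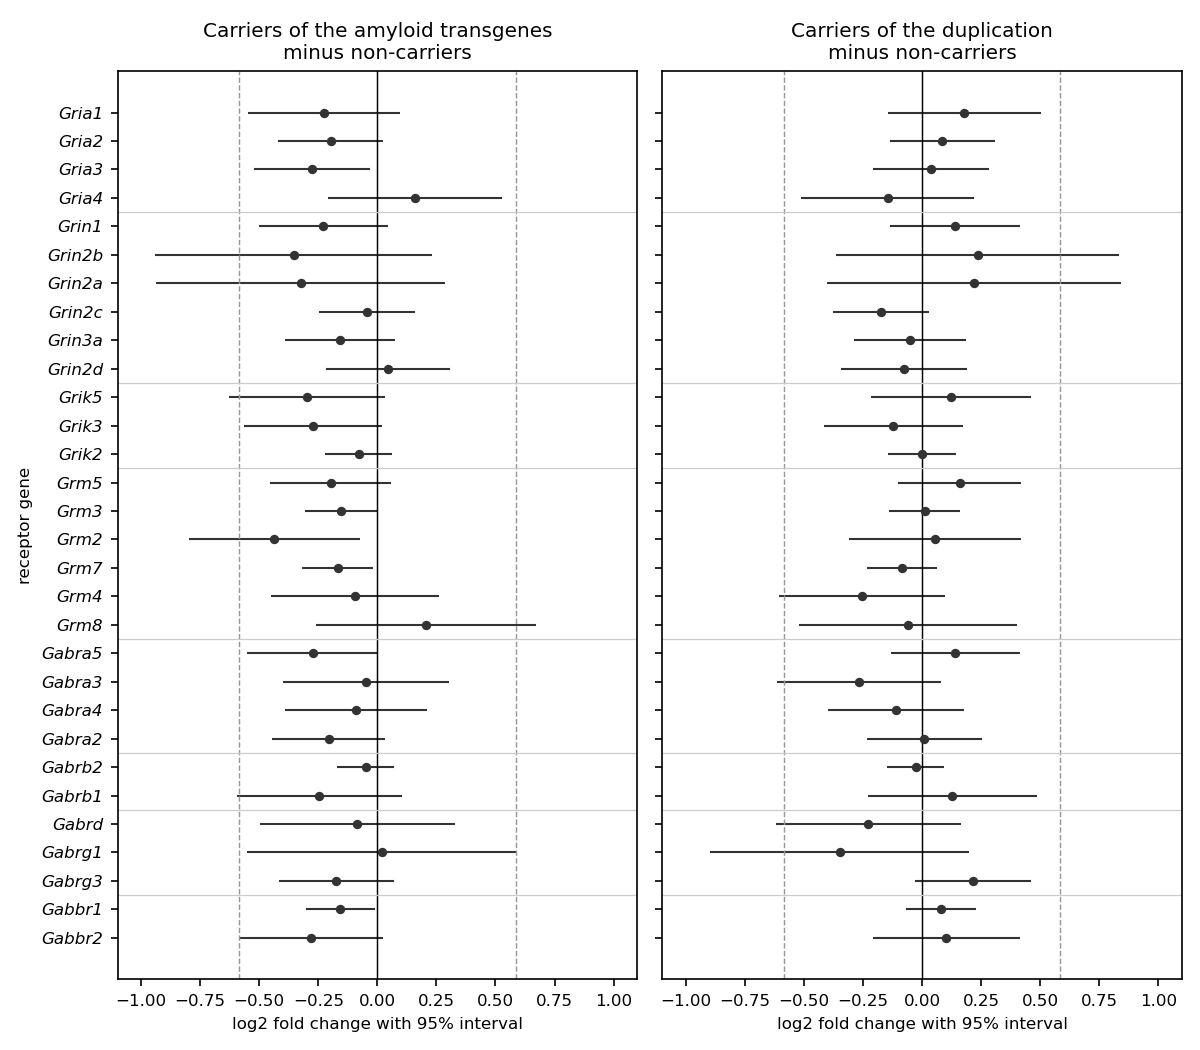
Log2 fold change with 95% interval for 30 of the tested receptor genes in carriers of the amyloid transgenes minus non-carriers (left) and in carriers of the duplication minus non-carriers (right), both from edgeR with 8 libraries a side. Dashed lines mark 1.5-fold. On the left 26 of 30 estimates lie below 0, with Grm2 lowest at -0.44, and on the right 14 of 30 do.

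In 5xFAD against wild-type, 0 receptor genes passed in edgeR, where 0.971% of all tested genes did, and 0 had an unadjusted p under 0.05 (DESeq2 called 0, with 1 at an unadjusted p under 0.05). The estimates ran from -0.33 for Grik5 to 0.19 for Gria4, with 27 of 34 below 0 and a median of -0.16, against 46.5% below 0 and a median of 0.02 over all tested genes. Gabbr1 had the smallest p, with a log2 fold change of -0.17 ± 0.10 (SE; adjusted p = 0.637 in edgeR). Gabrg3 was next at -0.25 ± 0.16 (SE; adjusted p = 0.662). Gabrg3 had 1.9, 1.62, 1.76 and 1.49 RPKM in 5xFAD and 1.96, 2, 1.88 and 2.02 RPKM in wild-type, so the highest 5xFAD library lay just above the lowest wild-type library. On library-scaled CPM, 0 of 34 receptor genes separated the groups, where 4.53% of all tested genes did. Leaving out the 4 libraries lowest in CA1 markers left 5xFAD with 2 libraries and wild-type with 3. In that setting 0 receptor genes passed and the median was -0.10, with 25 of 35 below 0. There 2 had an unadjusted p under 0.05, Grm2 at -0.37 ± 0.11 (SE; adjusted p = 0.195 in edgeR) and Gabra5 at -0.22 ± 0.10 (SE; adjusted p = 0.498).

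In 5xFAD-Dp16 against wild-type, 0 receptor genes passed in edgeR, where 1.01% of all tested genes did, and 1, Grm7, had an unadjusted p under 0.05 (DESeq2 called 0, with 1 at an unadjusted p under 0.05). Grm7 had 9.95, 11.1, 9.8 and 11.1 RPKM in 5xFAD-Dp16 and 12, 12.9, 11.3 and 12.3 RPKM in wild-type, with a log2 fold change of -0.25 ± 0.10 (SE; adjusted p = 0.614 in edgeR). All 4 5xFAD-Dp16 libraries were below the wild-type libraries in RPKM, but not after library scaling. Grik3 had the lowest estimate, -0.40 ± 0.20 (SE; adjusted p = 0.859). It was at 6.06, 5.31, 4.1 and 6.23 RPKM in 5xFAD-Dp16 and 8.93, 6.52, 6.32 and 6.98 RPKM in wild-type. Grik3 was the 1 receptor gene whose groups did not overlap in library-scaled CPM, where 4.38% of all tested genes did not. In all 31 of 34 estimates were below 0, with a median of -0.14, against 51.1% and a median of -0.0043 over all tested genes. Since 5xFAD-Dp16 and 5xFAD are here set against the same 4 wild-type libraries, their estimates are not independent. The 5xFAD-Dp16 group was all male, and its comparisons rest on the sex term fitted in the other groups. Without the 4 libraries lowest in CA1 markers Grm2 passed in 5xFAD-Dp16 against wild-type, where 1.34% of all tested genes did, at -0.45 ± 0.10 (SE; adjusted p = 0.0334 in edgeR), while with all 16 it was at -0.38 ± 0.25 (SE; adjusted p = 1). The median over 35 receptor genes was then -0.10, with 29 below 0.

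In 5xFAD-Dp16 against Dp16, 0 receptor genes passed in edgeR, where 0.845% of all tested genes did, and 3, Grm7, Grm2 and Gria2, had an unadjusted p under 0.05 (DESeq2 called 0, with 3 at an unadjusted p under 0.05). The estimate of Grm2 was -0.56 ± 0.25 (SE; adjusted p = 0.573 in edgeR), that of Grm7 was -0.23 ± 0.10 (SE; adjusted p = 0.573) and that of Gria2 was -0.33 ± 0.15 (SE; adjusted p = 0.579). Gria2 had 40.5, 44.7, 35.3 and 41.6 RPKM in 5xFAD-Dp16 and 44.7, 46.3, 49.7 and 47 RPKM in Dp16, so the highest 5xFAD-Dp16 library and the lowest Dp16 library were at the same rounded value. Grin3a was the 1 gene whose library-scaled CPM did not overlap, with a highest value of 47.8 in 5xFAD-Dp16 and a lowest of 48.6 in Dp16, where 5.76% of all tested genes did not overlap. The log2 fold change of Grin3a was -0.17 ± 0.16 (SE; adjusted p = 0.759 in edgeR). The median over the 34 genes was -0.21 with 27 below 0, against 0.02 and 46.6% below 0 over all tested genes. The median was -0.13 without the 4 libraries, with 29 of 35 below 0, and Grm2 was at -0.38 ± 0.10 (SE; adjusted p = 0.106 in edgeR).

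The duplication was compared on each background. In Dp16 against wild-type, 0 receptor genes passed in edgeR, where 0.0839% of all tested genes did, and 1, Grin2c, had an unadjusted p under 0.05 (DESeq2 called 0, with 1 at an unadjusted p under 0.05). Grin2c, whose subunit is best known from the cerebellum and from astrocytes, had 9.4, 7.36, 7.09 and 7.87 RPKM in Dp16 and 12, 9.84, 10.1 and 8.4 RPKM in wild-type. Of the 4 Dp16 libraries 3 lay below all wild-type libraries, and the estimate was -0.31 ± 0.13 (SE; 95% interval -0.59 to -0.03; adjusted p = 0.99 in edgeR). Gria2 was next at 0.22 ± 0.14 (SE; adjusted p = 0.99), with 44.7, 46.3, 49.7 and 47 RPKM in Dp16 and 39.7, 44.6, 47.8 and 33.9 RPKM in wild-type. Of the 34 estimates 14 were below 0 and the median was 0.03, against 53.1% and -0.01 over all tested genes. No receptor gene separated these groups in library-scaled CPM, where 2.92% of all tested genes did. Grin2c was at -0.44 ± 0.11 without the 4 libraries (SE; adjusted p = 0.333 in edgeR) and the median was 0.02.

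In 5xFAD-Dp16 against 5xFAD, 0 receptor genes passed in edgeR, where 0.0539% of all tested genes did, and 0 had an unadjusted p under 0.05 (DESeq2 called 0, with 0 at an unadjusted p under 0.05). Gabrg3 had the smallest p, with 2.09, 2.45, 1.46 and 1.9 RPKM in 5xFAD-Dp16 and 1.9, 1.62, 1.76 and 1.49 RPKM in 5xFAD. The ranges overlapped, and the estimate was 0.29 ± 0.17 (SE; adjusted p = 1 in edgeR). Grm4, a presynaptic group III receptor, had 2.75, 2.46, 3.78 and 3.4 RPKM in 5xFAD-Dp16 and 2.91, 4.19, 3.62 and 5.46 RPKM in 5xFAD, with an estimate of -0.37 ± 0.24 (SE; adjusted p = 1). No receptor gene separated these groups, where 2.61% of all tested genes did. Leaving the 4 libraries out, 0 receptor genes passed and the median over 35 genes was -0.03, against -0.02 over 34 genes with them.

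Averaged over both backgrounds, carriers of the duplication against non-carriers gave 0 receptor genes in edgeR, where 0.234% of all tested genes passed, and 0 with an unadjusted p under 0.05 (DESeq2 called 0, with 0 at an unadjusted p under 0.05). The estimates ran from -0.35 for Gabrg1 to 0.24 for Grin2b, with 16 of 34 below 0 and a median of 0.01 against -0.01 over all tested genes. For 28 of the 34 genes the 95% interval lay within 1.5-fold in either direction. Gabrg3 at 0.22 ± 0.12 and Grin2c at -0.18 ± 0.10 (SE; adjusted p = 0.949 for both in edgeR) had the smallest p. The interaction, the duplication's effect with the amyloid transgenes minus that without them, gave 0 receptor genes in edgeR, where 0% of all tested genes passed, and 0 with an unadjusted p under 0.05 (DESeq2 called 0, with 0 at an unadjusted p under 0.05). The smallest p were those of Grin2c, 0.27 ± 0.20, and Gria2, -0.27 ± 0.21 (SE; adjusted p = 1 for both). Without the 4 libraries 0 receptor genes passed in either, Grin2c was at -0.23 ± 0.09 for the duplication (SE; adjusted p = 0.758 in edgeR) and at 0.41 ± 0.19 for the interaction (SE; adjusted p = 1). With all 16 libraries the interaction's median SE was 0.26 per gene, and 11 of the 34 intervals lay within 1.5-fold. A test for any difference among the 4 genotypes gave 0 receptor genes in edgeR, where 1.62% of all tested genes passed, and 0 with an unadjusted p under 0.05 (DESeq2 called 0, with 1 at an unadjusted p under 0.05), and Grm2 had an adjusted p of 0.632. Between females and males, 0 receptor genes passed in edgeR, where 0.048% of all tested genes did, and 1, Gabra5, had an unadjusted p under 0.05 (log2 fold change of females over males -0.35 ± 0.15, SE, adjusted p = 0.822; DESeq2 called 0, with 1 at an unadjusted p under 0.05).

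The 4 libraries lowest in CA1 markers were described by their markers. A score of 22 marker genes of midbrain and hypothalamus, the mean over genes of log2 CPM centred on the 16 libraries, was highest in 5xFAD-Dp16 library 3 (0.91), 5xFAD library 2 (2), 5xFAD library 4 (-0.03) and wild-type library 4 (1.95). The other 12 libraries were at or below -0.20. The 4 were taken as the highest in this score, so that ranking was set by the choice and is not a result. The same 4 libraries had the 4 highest thalamus scores (0.30 to 1.60, against at most 0.14) and the 4 lowest CA1 pyramidal cell scores (-0.87 to -0.38, against at least -0.11). The summed CPM of the midbrain markers were 63.3 to 468 in the 4 libraries and 69 to 118 in the other 12, and the lowest sum of the 16, 63.3, was that of 5xFAD library 4, so the midbrain markers were not high in all 4. The summed CPM of the thalamus markers were 364 to 686 in the 4 libraries and 195 to 306 in the other 12. None of the 22 midbrain markers was at 0 in all 4 libraries, and 1 was at 0 in all of the other 12. Pan-neuronal scores overlapped, at -0.09 to 0.05 in the 4 libraries and -0.09 to 0.16 in the other 12. Those of 10 excitatory neuron markers did not, at -0.865 to -0.169 in the 4 libraries and 0.00116 to 0.415 in the other 12, nor did those of 8 CA3 markers, at -0.565 to -0.0719 in the 4 libraries and -0.0375 to 0.262 in the other 12. The scores of 10 oligodendrocyte markers were higher, at 0.105 to 0.594 in the 4 libraries and -0.452 to 0.0308 in the other 12. These libraries were grouped by their marker values and not by a label, so the comparison below is a description with no test, and 3 of the 4 are amyloid carriers.

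Of the 34 receptor genes 12 (35.3%) did not overlap between the 4 libraries and the other 12 in library-scaled CPM, where 13.2% of all tested genes did not. Of these 10 were lower, with Grin2a, Grm2, Grik5, Gria1 and Grin1 at the largest differences and Grm5, Gria3, Gria2 and Gabra2 among the rest. Grin2a averaged 121 ± 38.9 CPM in the 4 libraries and 273 ± 67.6 in the other 12 (SD), Gria1 768 ± 68.7 and 1240 ± 151, and Grm2 37.3 ± 7.81 and 64 ± 9.69. Of the 2 that were higher, Gria4 was at 96.2 ± 10.2 in the 4 libraries and 60.6 ± 6.89 in the other 12. The pattern runs beside the CA1, CA3, excitatory neuron, oligodendrocyte, thalamus and midbrain scores given above, whose part in it was not tested. Gabrb2 and Grik2 stayed close, with log2 ratios of -0.08 and 0.03.

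The 4 libraries were not alike in their GABA-A genes. 5xFAD library 4, with the highest thalamus score of 1.60, had 31.3 RPKM of Gabra4 and 21.4 RPKM of Gabrd. Its group mates had 11.5 to 17.5 RPKM of Gabra4 and 6.14 to 11.6 RPKM of Gabrd. Gabra4 and Gabrd subunits assemble with each other in thalamic relay cells. Wild-type library 4 had 42.1 RPKM of Gabra3, 14.7 RPKM of Gabrg1 and 18.8 RPKM of Gria4, each above its 15 other libraries, and 33.9 RPKM of Gabra5, below them. It also held 105 of the 142 Gabra6 counts and the highest score of the cerebellar granule markers, 0.72 against at most 0.17. The summed CPM of these 5 markers was 160 there, so they were not high as a sum. The sums were 132 to 167 in the 4 libraries and 165 to 197 in the other 12. Leaving the 4 libraries out, the median log2 fold change of the receptor genes between amyloid carriers and non-carriers was -0.09, with 30 of 35 tested genes below 0, against -0.17 with them. The value with the midbrain and CA1 scores as covariates was -0.10.

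Grm2 was also followed without the 4 libraries, a set chosen after seeing the data. Grm2 itself did not overlap between them and the other 12, at 25.7 to 42.3 and 49.5 to 76.2 CPM. The 4 include wild-type library 4, the library with the lowest Grm2. In the other 12 libraries Grm2 was at 10.8 to 12.2 RPKM in the 5 amyloid carriers and at 11.6 to 15.8 RPKM in the 7 non-carriers, with 6 of the 7 above all carriers. Dentate granule scores in these libraries were 0.01 to 0.39 in carriers and -0.20 to 0.50 in non-carriers. Without the 4 libraries, where 2.85% of all tested genes were called, the log2 fold change was -0.38 ± 0.07 (SE) with an adjusted p of 0.00723 in edgeR, against -0.44 and 0.24 with all 16. With all 16 libraries and the midbrain and CA1 scores as covariates it was -0.13 with an adjusted p of 0.623. Over 25 alternatives the estimate lay between -0.58 and -0.13 and the adjusted p between 0.000285 and 0.623, so the direction held in each and the call in 4 of them. One of these left out only the 2 libraries above a midbrain score of 1, where 2.29% of all tested genes were called. For any difference among the genotypes Grm2 was also called without the 4 libraries, where 1.93% of all tested genes were.

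**Figure D3:**
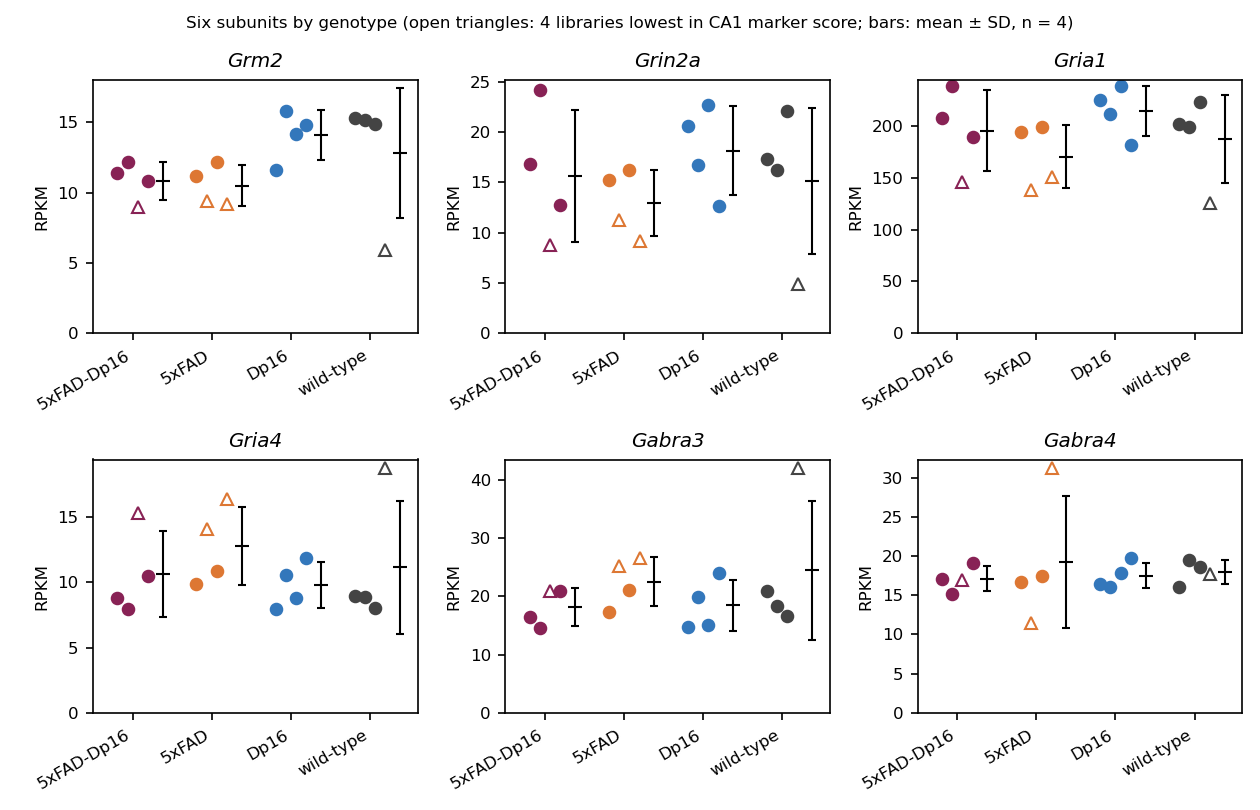
RPKM of Grm2, Grin2a, Gria1, Gria4, Gabra3 and Gabra4 in each library of 5xFAD-Dp16, 5xFAD, Dp16 and wild-type, with mean ± SD (n = 4) beside each group. Open triangles are the 4 libraries lowest in CA1 marker score, which sit low for Grin2a and Gria1 and high for Gria4 in every group that holds any. Grm2 is at 5.91 RPKM in wild-type library 4, against 14.9 to 15.3 RPKM in the other wild-type libraries.

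**Figure D4:**
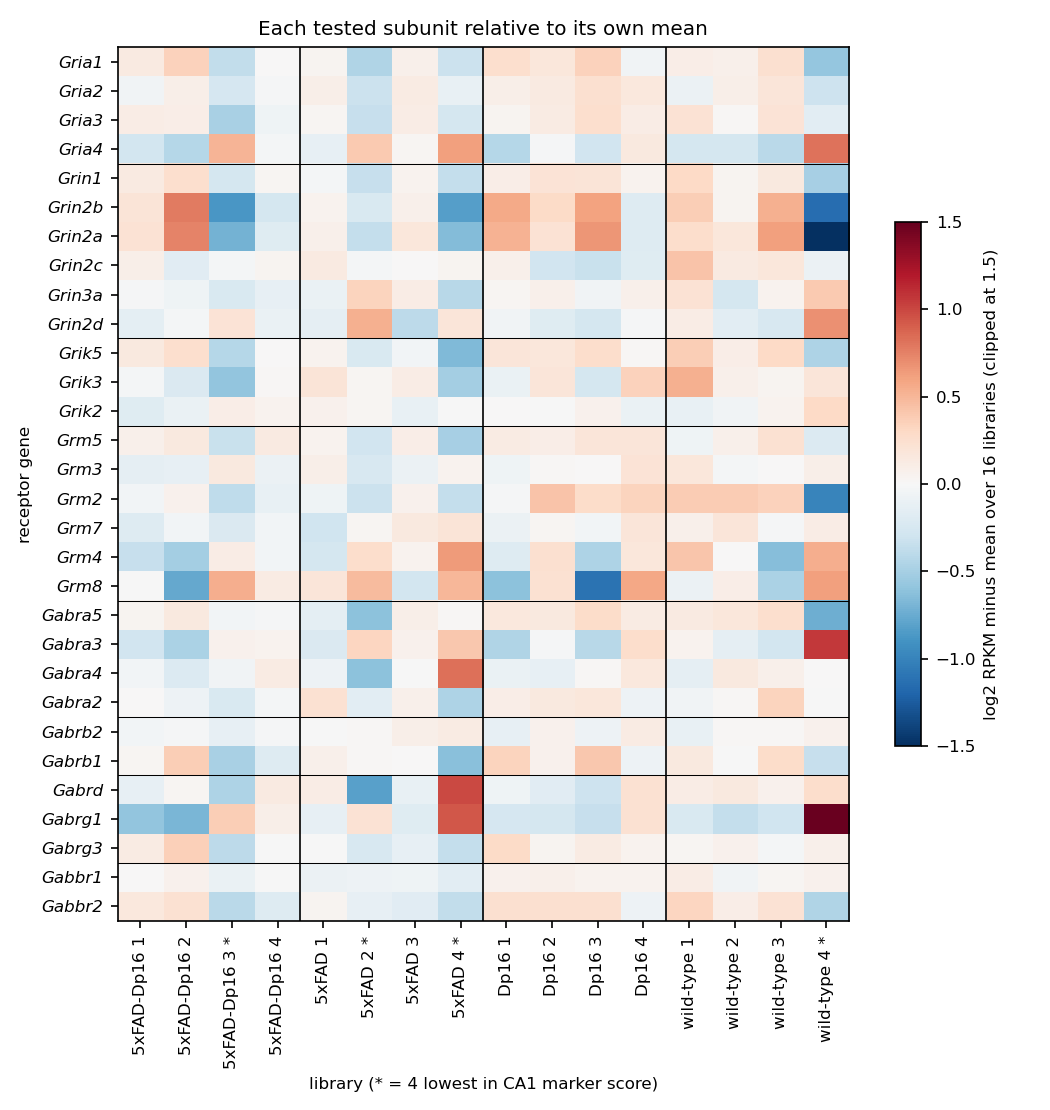
Log2 RPKM of 30 of the tested receptor genes in each library, less the gene's mean over the 16 libraries, with libraries ordered as 5xFAD-Dp16, 5xFAD, Dp16 and wild-type. The 4 starred libraries, the lowest in CA1 marker score, are low across Gria1, Grin1, Grin2a, Grin2b and Grik5 and high in Gria4, and Gabra4 and Gabrd stand out in 5xFAD library 4.

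Summed over families, ionotropic glutamate receptor RPKM was 522 ± 86.9 in 5xFAD-Dp16, 468 ± 67.5 in 5xFAD, 570 ± 41.4 in Dp16 and 523 ± 98.8 in wild-type, with the SD over 4 libraries. GABA-A receptor RPKM was 306 ± 6.08 in 5xFAD-Dp16, 316 ± 38.3 in 5xFAD, 320 ± 16.4 in Dp16 and 320 ± 14.3 in wild-type. The log2 ratio of the glutamate to the GABA-A sum lay between 0.43 and 1.00 in 5xFAD-Dp16, 0.15 and 0.84 in 5xFAD, 0.60 and 0.95 in Dp16, and 0.18 and 0.94 in wild-type. These ranges overlapped. The 4 libraries lowest in CA1 markers were the 4 lowest, at 0.15 to 0.55. Without them the glutamate sum was 559 ± 54.4 RPKM in 5xFAD-Dp16 (n = 3), 526 ± 9.19 in 5xFAD (n = 2), 570 ± 41.4 in Dp16 (n = 4) and 571 ± 33.9 in wild-type (n = 3, SD), and the ratio lay between 0.60 and 1.00 in all 12.

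Genes that act with the receptors were examined from lists chosen for their function. The lists held 15 AMPA receptor auxiliary genes, 4 kainate auxiliary and delta receptor genes, 20 excitatory scaffold genes, 17 inhibitory scaffold and GABA receptor partner genes, 17 genes of glutamate and GABA synthesis and transport, and 6 further GABA receptor genes, of which 15, 4, 20, 16, 17 and 3 were tested. None of these genes passed in edgeR or DESeq2 in 5xFAD against wild-type, in Dp16 against wild-type or in the averaged amyloid comparison. At an unadjusted p under 0.05 in edgeR there were 0, 2, 0, 0, 1 and 0 genes in 5xFAD against wild-type and 0, 0, 0, 0, 0 and 1 in Dp16 against wild-type. The DESeq2 numbers were 0, 2, 0, 1, 1 and 0 in 5xFAD against wild-type, and 0, 0, 0, 0, 0 and 1 in Dp16 against wild-type.

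In 5xFAD against wild-type the smallest p of each list belonged to Shisa9, an AMPA receptor auxiliary subunit, at -0.22 ± 0.11, Grid1, the delta receptor that binds cerebellins, at -0.33 ± 0.13, Dlg4, the scaffold PSD-95, at -0.33 ± 0.17, Clptm1, a protein that retains GABA-A receptors in the cell, at -0.15 ± 0.08, Gad1, a GABA-synthesising enzyme, at -0.20 ± 0.09, and Gabre, at -1.07 ± 0.87 (log2 fold change ± SE). In Dp16 against wild-type they were Cpt1c at 0.24 ± 0.13, Neto2, a kainate receptor auxiliary subunit, at -0.19 ± 0.10, Dlg3, the scaffold SAP102, at 0.26 ± 0.21, Kctd12b at -0.37 ± 0.19, Slc17a8, the vesicular glutamate transporter VGLUT3, at 0.36 ± 0.23, and Gabre at -2.11 ± 0.88. The scaffold list had 18 of 20 estimates below 0 in 5xFAD against wild-type, with a median of -0.25, and 3 of 20 in Dp16 against wild-type, with a median of 0.17, where 46.5% and 53.1% of all tested genes were below 0. These comparisons share the wild-type libraries. Without the 4 libraries lowest in CA1 markers the scaffold list had 19 of 20 below 0 in 5xFAD against wild-type, with a median of -0.15, and 13 of 20 in Dp16 against wild-type, with a median of -0.02, so the second median changed sign. The scaffold score was -0.54 to -0.33 in the 4 libraries and -0.07 to 0.36 in the other 12, and its part in these medians was not tested.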

How the data were processed

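Counts and RPKM per gene and library were deposited by the authors as whole-series tables. Per the submitters' processing notes, FastQC 0.11.5, HISAT2 2.1.0, SAMtools 1.5 and HTSeq 0.6.1 were used with GRCm38, and the names of the tables give GENCODE M24 as the annotation. Per the labels' protocols the kit was strand-specific, while no source used here states the strand setting of the counting. The deposited RPKM were the deposited counts rescaled: each of 14522 genes with at least 20 counts in at least 8 libraries gave 1 implied length within a relative 1e-06. RPKM served for levels between genes and counts for tests.

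In edgeR 4.0.16 (R 4.3.3), genes were kept by filterByExpr, libraries scaled by TMM, and genotype and sex fitted over 16 libraries by robust quasi-likelihood. The fit was also tried on counts simulated from the means and spread of these data, with no difference in tissue content simulated. Intervals are at 95%. DESeq2 1.42.0, scalings, filters, covariates and left-out libraries were alternatives. Marker scores are means of log2 (CPM + 0.5) centred per gene. The labels give no animal numbers, so the spread behind each p-value is that of the libraries alone and may be technical in part. The 5xFAD, Dp16 and wild-type groups hold both sexes and so more than 1 animal each. Same-numbered libraries did not deviate together throughout, with correlations of -0.478 to 0.557, and were not paired in the main fit. Values by library are given for the highest-expressed gene of each family and the 2 genes with the smallest edgeR p in each genotype comparison. For partner lists, the gene with the smallest p in 5xFAD and Dp16 against wild-type is given. Results of some members are not reported here, and the figures leave those out. Any other gene was named after its values were seen. Members and lists were chosen with earlier results of these data known.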

Additional observations from a re-analysis of the deposited data

Results flagged for a closer look

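In each group of 4 libraries the highest or lowest RPKM of a receptor gene was checked for standing apart from the other 3 (gap over range above Dixon's 95% value, 0.829 for 4 samples, for genes with at least 30 counts in the group without its highest library). Of 120 gene and group combinations 11 were so marked, where chance marks about 1 in 20. Of the 11, 8 were in the 4 libraries lowest in CA1 markers and 3 in other libraries. No explanation was tested.

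Wild-type library 4 accounted for 5: Gabrg1 at 14.7 RPKM (the others 4.08 to 4.48), Gria4 at 18.8 (8.06 to 8.93) and Gabra3 at 42.1 (16.6 to 20.9) were high, and Grm2 at 5.91 (14.9 to 15.3) and Gabra5 at 33.9 (62.1 to 67.1) were low. In 5xFAD-Dp16 library 3, Grm3 was high at 22.3 RPKM (18.4 to 18.9) and Grm5 low at 23.5 (31.3 to 32.9), and in 5xFAD library 4 Gabrb1 was low at 8.92 (13.8 to 14.5). The other 3 were Gabra2 in wild-type library 3, high at 17 RPKM (13 to 13.6), and 2 in Dp16 library 4, with Gabrg1 high at 6.16 (4.12 to 4.39) and Gabbr2 low at 64.5 (80.1 to 80.6). In the interaction test in edgeR 0 receptor genes passed, and 0 had an unadjusted p under 0.05.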

How the results depend on the processing

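Of 400 log2 fold changes recomputed for 16 gene and comparison pairs under 25 alternatives, 395 kept their direction and side of the threshold, 5 became called, all of Grm2, and 0 reversed. The number of receptor genes called stayed at 0 in every comparison and alternative except these. Without the low-count filter (30883 genes tested) there was 1 in Dp16 against wild-type (Gabra6; 0.68% of all genes called), 1 in 5xFAD-Dp16 against Dp16 (Grm2; 2.01%), 1 in the averaged duplication effect (Gabra6; 0.58%), 4 in the averaged amyloid effect (Grik5, Grm2, Grin2b and Grin2a, 4.16%), 1 between the sexes (Grin2a, 1.31%) and 4 for any genotype difference (Gabra6, Grm2, Grin2b and Grin2a, 4.24%). Without the 2 libraries above a midbrain score of 1 there was 1 in the averaged amyloid effect (Grm2, 2.29% of all genes). Without the 4 libraries lowest in CA1 markers, chosen after seeing the data, there was 1 in 5xFAD-Dp16 against wild-type (1.34% of all genes), in the averaged amyloid effect (2.85%) and for any difference (1.93%), Grm2 each time. Leaving out 1 library at a time gave 0 to 1 in the averaged amyloid effect, the 1 being Grm2 without wild-type replicate 4 (3.07% of all genes), and 0 in the other comparisons. The cause was not tested.

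Over all genes, DESeq2 called 38 genes in Dp16 against wild-type (edgeR 14), 292 in 5xFAD (162), 267 in 5xFAD-Dp16 (169), 27 in 5xFAD-Dp16 against 5xFAD (9), 269 against Dp16 (141), 83 for the duplication (39), 693 for amyloid (427), 21 for sex (8) and 566 for any difference (271). No filter gave 210, 398, 355, 75, 620, 179, 1284, 404 and 1310 in the same order and 128 for the interaction. Males only gave 0, 44, 61, 0, 49, 11 and 169 for the first 7 and 87 for any difference, and no sex test was possible there or without the sex term. The marker covariates gave 45, 245, 269 and 34 for the first 4 and 74 for the duplication, and dropping the 4 libraries gave 39 for Dp16 against wild-type. No sex term gave 17 in 5xFAD-Dp16 against 5xFAD. Leaving out 1 library gave as few as 3 in Dp16 against wild-type (without wild-type replicate 2 or Dp16 replicate 3), 0 in 5xFAD-Dp16 against 5xFAD (without any of 7 libraries of the 3 transgenic or duplication groups), 76 and 80 against Dp16 (without Dp16 replicates 2 and 3), 80 and 99 in 5xFAD-Dp16 against wild-type (without wild-type replicates 1 and 3) and 23 for the duplication (without wild-type replicate 1 or 5xFAD replicate 3).

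The replicate block gave 0 receptor genes in every comparison, and over all genes 0 in 5xFAD-Dp16 against 5xFAD. Same-numbered libraries correlated at -0.478 to 0.557 over 24 pairs, with 10 above 0.1. The 3 filtered genes were not tested, and 11 of 34 interaction intervals lay within 1.5-fold.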
